A study of Mus musculus with 17 samples.

Results

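The miRNAs described here are mmu-miR-1895, mmu-miR-1907, mmu-miR-1949, mmu-miR-1957a and mmu-miR-2137, mouse microRNAs (miRNAs) that carry late numbers in the miRNA registry. They were chosen by name and are 5 of the 357 miRNA assays of a serum panel. The study measured serum RNA by real-time PCR in 17 mice, to compare circulating miRNAs with the Autotaxin transgene and with spontaneous tumors. The groups were 7 transgenic AT-ATX mice with spontaneous tumors, 7 transgenic AT-ATX mice without tumors and 3 healthy wild-type FVB/N mice, with no treatment named for any group. Autotaxin, an enzyme released from cells, produces lysophosphatidic acid, a lipid signal. The promoter of the transgene, the background strain of the transgenic mice, their age and the site of the tumors are not given in the sources used here. Each sample is labelled as 1 mouse, and a question mark stands in the label of tumor replicate 5.

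A miRNA is cut from a hairpin precursor and guides a silencing complex to messenger RNAs, chiefly through its seed, the bases 2 to 8 from its 5′ end. The registry numbers miRNAs in the order of their registration, so that late numbers mostly came from deep sequencing, and many of them are less well studied than the conserved families with low numbers. Serum miRNAs come from blood cells and from tissues, bound to proteins or in vesicles. In serum, fewer releasing cells and less release per cell cannot be told apart.

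RefSeq's tables for the mouse build GRCm38.p6 held mature sequences for 2 of the 5, miR-2137 and miR-1895. They are shown because miR-2137 passed the test between groups and miR-1895 was the one whose fitted difference between tumor and tumor-free mice lay below 0. In the mature miRNAs, written 5′ to 3′, capitals mark the seed.
mmu-miR-2137: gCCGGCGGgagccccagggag
mmu-miR-1895: cCCCCGAGgaggacgaggagga
In the hairpins, capitals mark the mature miRNA.
mir-2137 hairpin: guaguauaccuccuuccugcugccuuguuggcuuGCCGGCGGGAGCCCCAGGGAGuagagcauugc
mir-1895 hairpin: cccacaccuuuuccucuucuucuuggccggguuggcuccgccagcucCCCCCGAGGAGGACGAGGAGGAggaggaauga

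Both mature sequences are rich in G and C. Their share of G and C was 85.7% in miR-2137 and 72.7% in miR-1895, against a median of 52.2% over 1679 mature mouse miRNAs, of which 1671 lay below miR-2137 and 1624 below miR-1895. The seed of either was found in 0 other mature mouse miRNAs of the table. Panel assays without a sequence in that table were not compared. The letters GAGGA, searched on the RNA strand with overlaps allowed and chosen after the sequence was seen, occur 4 times in miR-1895. They occur at least once in 3.87% of the mature miRNAs and that often in 1.

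The hairpin of miR-2137 lies at chrX:72992079-72992144 on the plus strand, within the span of Zfp185, a gene for a LIM domain protein, which has the same strand. That of miR-1895 lies at chr3:134240505-134240583 on the minus strand, within the span of Cxxc4, a gene for an inhibitor of Wnt signaling, which is on the plus strand. Mir1907 lies at chr15:50889025-50889114 within the span of Trps1, a transcription factor gene, and Mir1949 on chromosome 18 within the span of Snhg4, a host gene of small nucleolar RNAs. Whether these places are exonic or intronic was not analysed here, and miR-1957a was not matched to a gene. No role of the miRNAs themselves in serum is stated here.

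The deposited values are quantification cycles (Ct), which fall as template rises, by about 1 cycle per doubling. A level here is the average Ct of 252 shared assays, those with a value in every mouse, less the Ct of the assay itself. It is a log2 value, and levels are relative to the rest of the panel and not amounts per volume. The mean Ct of these shared assays ran from 27.95 to 31.67 in tumor mice, 28.14 to 30.50 in tumor-free transgenic mice and 27.00 to 29.98 in wild-type mice. The hemolysis index compares miR-451a, a red blood cell miRNA, with miR-23a-3p as the Ct of miR-23a-3p less that of miR-451a. It was 3.97 ± 1.97 cycles (SD, n = 7) in tumor mice, 4.38 ± 0.84 (n = 7) in tumor-free mice and 5.61 ± 2.07 (n = 3) in wild-type mice. The mean level of miR-451a was 10.2 in tumor mice, 10.1 in tumor-free mice and 10.6 in wild-type mice.

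The miRNAs differed widely in abundance. By mean level over the mice in which each was detected, miR-2137 ranked 90 of 357 assays, miR-1957a 213, miR-1949 216, miR-1895 314 and miR-1907 354. Such ranks compare assays whose PCR efficiency is not given. miR-2137 was detected in 17 mice, miR-1949 in 16, miR-1895 and miR-1907 in 15 and miR-1957a in 14. An assay was tested if it was detected in at least 5 tumor, 5 tumor-free and 2 wild-type mice, which 338 assays and 4 of the 5 miRNAs met. miR-1957a, with 4 tumor mice, did not. Of 12 Fisher's exact tests of detection between groups, two-sided, 0 passed and 0 had an unadjusted p under 0.05 (smallest p = 0.192, adjusted p = 0.95, for miR-1957a in 4 of 7 tumor and 7 of 7 tumor-free mice).

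**Figure D1:**
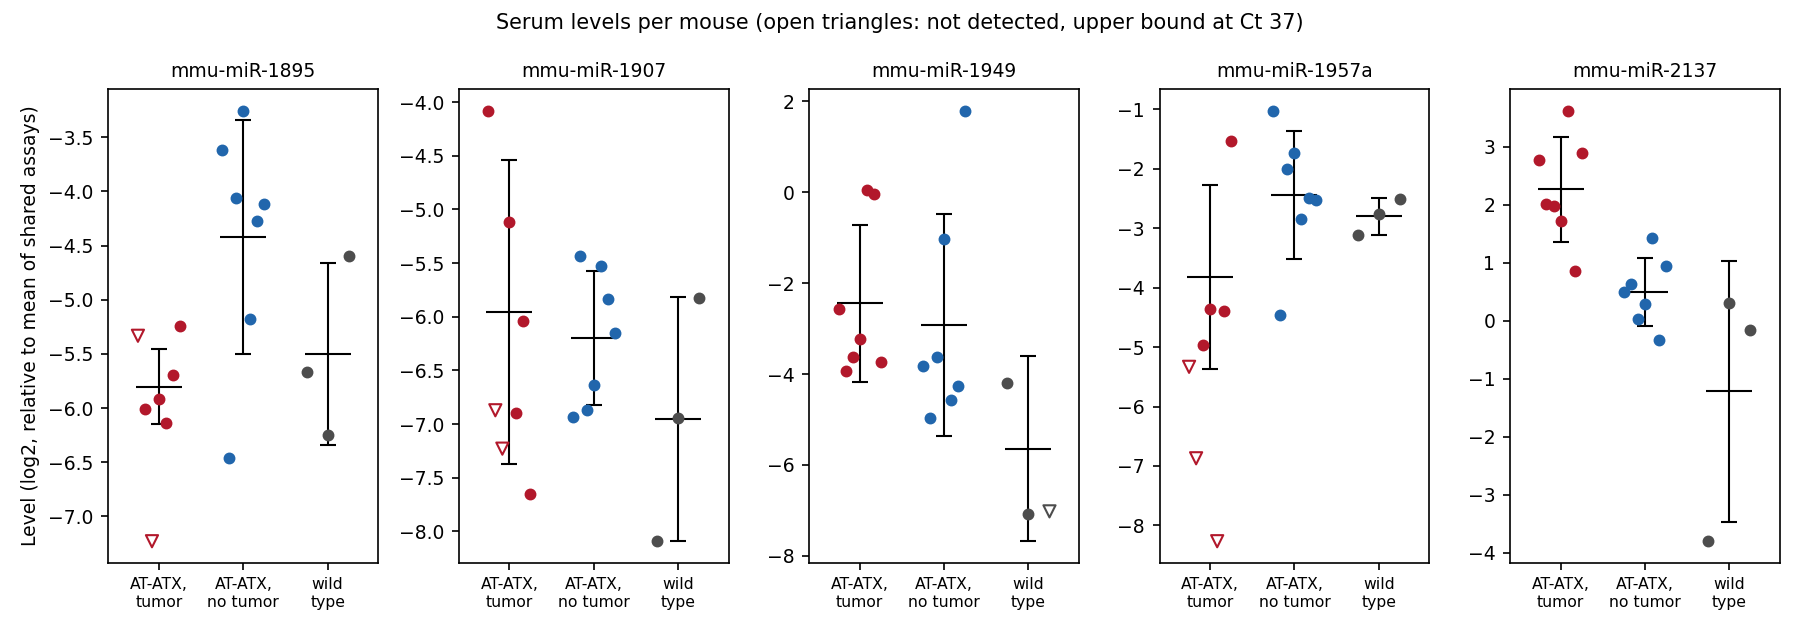
Level of each miRNA per mouse (y axis, log2 relative to the mean Ct of 252 shared assays), by group, with a separate y scale in each panel. Filled points are single mice, open triangles are mice without a detected value, drawn at the highest level that a Ct of 37 allows, and bars are the mean and SD of detected mice; miR-2137 lies higher in all 7 tumor mice than in any wild-type mouse.

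miR-2137 was the abundant member and the only one of the 4 tested that passed in any comparison. Its level in tumor mice 1 to 7 was 2.77, 2.01, 1.97, 1.72, 3.62, 0.85 and 2.90. In tumor-free transgenic mice 1 to 7 it was 0.50, 0.63, 0.03, 0.29, 1.42, -0.34 and 0.94. In wild-type mice 1 to 3 it was -3.80, 0.31 and -0.15. All 7 tumor mice thus lay above all 3 wild-type mice, and 6 of 7 lay above every tumor-free mouse, with tumor replicate 6 inside the tumor-free range.

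Against wild-type mice, miR-2137 rose in tumor mice, to 2.26 ± 0.91 (SD, n = 7) against -1.22 ± 2.25 (n = 3). The log2 difference was 3.48 (SE 0.72, 95% interval 1.98 to 4.98), which is 11.2-fold higher, with a limma adjusted p of 0.00776 over 338 assays. It ranked 4 of 338 by p. In this comparison 8.28% of the assays passed, 4.14% higher and 4.14% lower. The 2 groups did not overlap for 9.17% of the assays, and 5.33% lay higher in this way. Wild-type replicate 1 stood lowest of all mice, and without it the difference was 2.19 (limma adjusted p = 0.0373).

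The call for miR-2137 was not kept under every scaling. With raw Ct the difference was 2.10 (limma adjusted p = 0.162) and with spike-ins 2.36 (limma adjusted p = 0.187), while the median of all tested assays was at -1.22 and -0.94 under these scalings and at 0.19 with the shared assays. The exact permutation p was 0.00833, the smallest that 7 against 3 mice allow, and 0.201 after adjustment over the 338 assays. With the hemolysis index as a covariate the difference was 3.87 (limma adjusted p = 0.00375).

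Some cell type markers passed in the same comparison. Of 3 tested hepatocyte markers 2 passed as lower, miR-192-5p at -1.57 and miR-194-5p at -2.56, and the summed level of the 3 ran from 5.70 to 8.64 in tumor mice and from 7.65 to 9.51 in wild-type mice. Of 4 platelet markers 1 passed as higher, miR-223-3p, which neutrophils also hold in quantity. The 4 differences ran from -0.90 to 1.96, so at least 1 platelet marker lay lower in tumor mice. Summed levels of the 4 were 6.50 to 8.51 in tumor mice and 5.95 to 6.89 in wild-type mice. None of 3 tested red blood cell, 2 lymphocyte and 4 muscle markers passed. Summed levels ran from 9.56 to 12.8 in tumor mice and 10.9 to 12.6 in wild-type mice for the red blood cell list. They ran from 2.21 to 6.96 and 2.90 to 3.74 for lymphocytes, and from 0.02 to 7.72 and -1.07 to 3.25 for muscle, tumor mice first. None of the listed markers passed in the other comparisons. The part of these cell types in the level of miR-2137 was not tested.

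**Figure D2:**
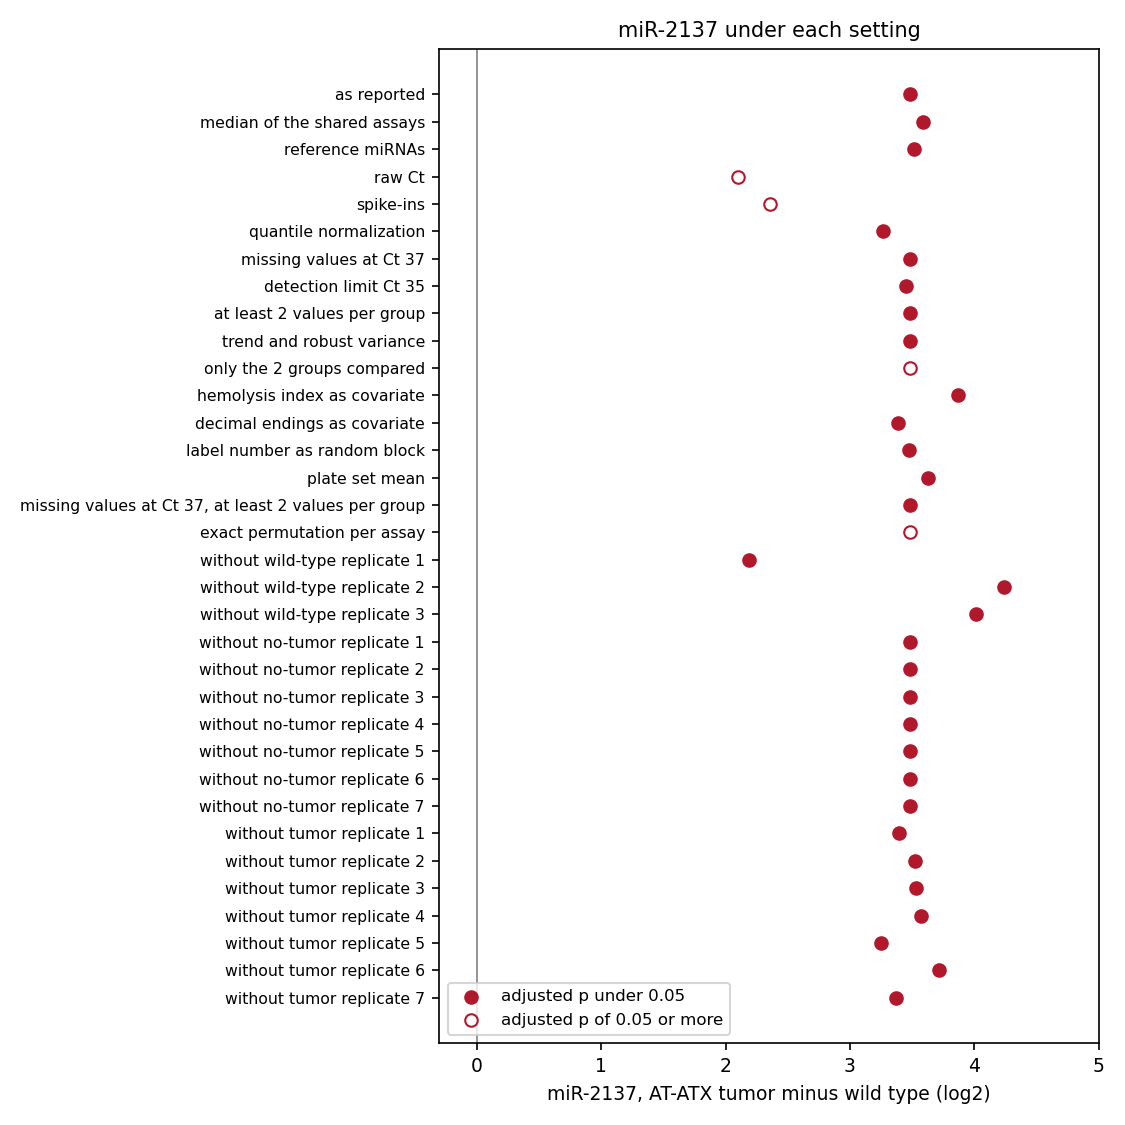
Log2 difference of miR-2137 between AT-ATX mice with tumors and wild-type mice (x axis) under the reported setting, each alternative and without each mouse in turn (y axis). Filled points passed at an adjusted p under 0.05 over all assays; the difference lies above 0 in every setting drawn, and raw Ct and spike-ins give the lowest values among the scalings, 2.10 and 2.36.

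The same miRNA did not pass in the other comparisons, which share samples with the first. Between tumor and tumor-free transgenic mice, with means of 2.26 ± 0.91 (SD, n = 7) and 0.50 ± 0.58 (n = 7), the difference was 1.77 (SE 0.56, 95% interval 0.61 to 2.93, limma adjusted p = 0.117). In that comparison 1.48% of assays passed. There miR-2137 passed in 2 of 33 alternatives. Without wild-type replicate 1 the difference stayed at 1.77, with a limma adjusted p of 0.0282. With only these 2 groups in the fit the limma adjusted p was 0.0362. Raw Ct gave 1.41 (limma adjusted p = 0.839), spike-ins 1.73 (limma adjusted p = 0.984) and reference miRNAs 1.27 (limma adjusted p = 0.292). For tumor-free against wild-type mice, where 0.592% of assays passed, the difference was 1.71 (SE 0.72, 95% interval 0.21 to 3.21, limma adjusted p = 0.178). Leaving out wild-type replicate 1 gave 0.42 and leaving out replicate 2 gave 2.47, while raw Ct gave 0.69 and spike-ins 0.63.

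Some transgenic mice share the number in their label, whose meaning is not stated. Among mice with the number 77, miR-2137 stood at 2.01 and 1.97 in those with tumors and at 0.63 in the tumor-free one. Among mice with the number 85 it stood at 1.72 with a tumor and at 0.29 and 1.42 without. In both sets the mice with tumors were the higher ones. This follows from the order given above, since these tumor mice all lay above every tumor-free mouse, and is no separate support.

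The assays most like miR-2137, by r of levels with group means taken off, were miR-501-5p (0.76, 17 mice), the rat assay miR-501-5p (0.76, 17 mice) and let-7g-3p (0.70, 16 mice). They are the highest of 353 assays compared, whose median r was -0.03 and lowest r -0.75. In raw Ct, miR-2137 correlated with the named assays at 0.86, 0.84 and 0.80.

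miR-1895 was low, with Ct values from 31.8 to 36.96, and its differences did not pass. Its level in the 5 tumor mice with a value was -6.01 (replicate 2), -5.92 (replicate 4), -6.13 (replicate 5), -5.70 (replicate 6) and -5.24 (replicate 7). Tumor replicates 1 and 3 had no value, which with a limit of Ct 37 puts them at no more than -5.33 and -7.23. In tumor-free mice the lowest, median and highest levels were -6.46, -4.12 and -3.25, and wild-type mice 1 to 3 had -5.67, -6.25 and -4.59.

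All 7 tumor mice, the 2 bounds included, lay below 6 of the 7 tumor-free mice. The exception was tumor-free replicate 2, at a Ct of 36.96, close to the highest Ct in the table. The mean was -5.80 ± 0.35 (SD, n = 5) in tumor mice and -4.42 ± 1.08 (n = 7) in tumor-free mice, a difference of -1.38 (SE 0.50, 95% interval -2.44 to -0.32, limma adjusted p = 0.151). Without tumor-free replicate 2 the difference was -1.72 (limma adjusted p = 0.0449), the 1 of 32 alternatives that passed. Raw Ct gave -1.35 (limma adjusted p = 0.969), spike-ins -1.06 (limma adjusted p = 0.984) and reference miRNAs -1.85 (limma adjusted p = 0.292). Against the wild-type mean of -5.50 ± 0.84 (n = 3), tumor mice differed by -0.30 and tumor-free mice by 1.08 (limma adjusted p = 0.816 and 0.274). These values moved with the scaling, to -1.29 and 0.061 on raw Ct, to -1.06 and -0.00067 on the spike-in scale and to -0.87 and 0.37 after quantile normalization.

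miR-1957a was measured in fewer tumor mice than any other of the 5. Its level was -4.97, -4.36, -4.39 and -1.54 in tumor replicates 3, 4, 6 and 7, while replicates 1, 2 and 5 had no value and so lay at or below -5.33, -6.87 and -8.27. Tumor-free mice had a lowest, median and highest level of -4.45, -2.50 and -1.02, and wild-type mice 1 to 3 had -3.12, -2.77 and -2.50. Of the 4 tumor mice with a value, replicate 3 lay below every tumor-free mouse. Replicates 4 and 6 lay just above the lowest tumor-free mouse and replicate 7 near the top of the tumor-free range.

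Over detected mice the mean of miR-1957a was -3.82 ± 1.55 (SD, n = 4) with tumors, -2.44 ± 1.08 (n = 7) without and -2.80 ± 0.31 (n = 3) in wild-type mice. The detected values alone leave out the tumor mice without a value. When assays with at least 2 values per group were tested, they gave a difference of -1.37 from tumor-free mice (SE 0.66, limma adjusted p = 0.299) and of -1.02 from wild-type mice (limma adjusted p = 0.465). With missing values set to Ct 37, an alternative added after the data were seen, it was -2.66 (limma adjusted p = 0.0672), and against wild type it was -2.31 (limma adjusted p = 0.158). Tumor-free mice differed from wild type by 0.36 (limma adjusted p = 0.784 over detected values and 0.828 with missing values at Ct 37).

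**Figure D3:**
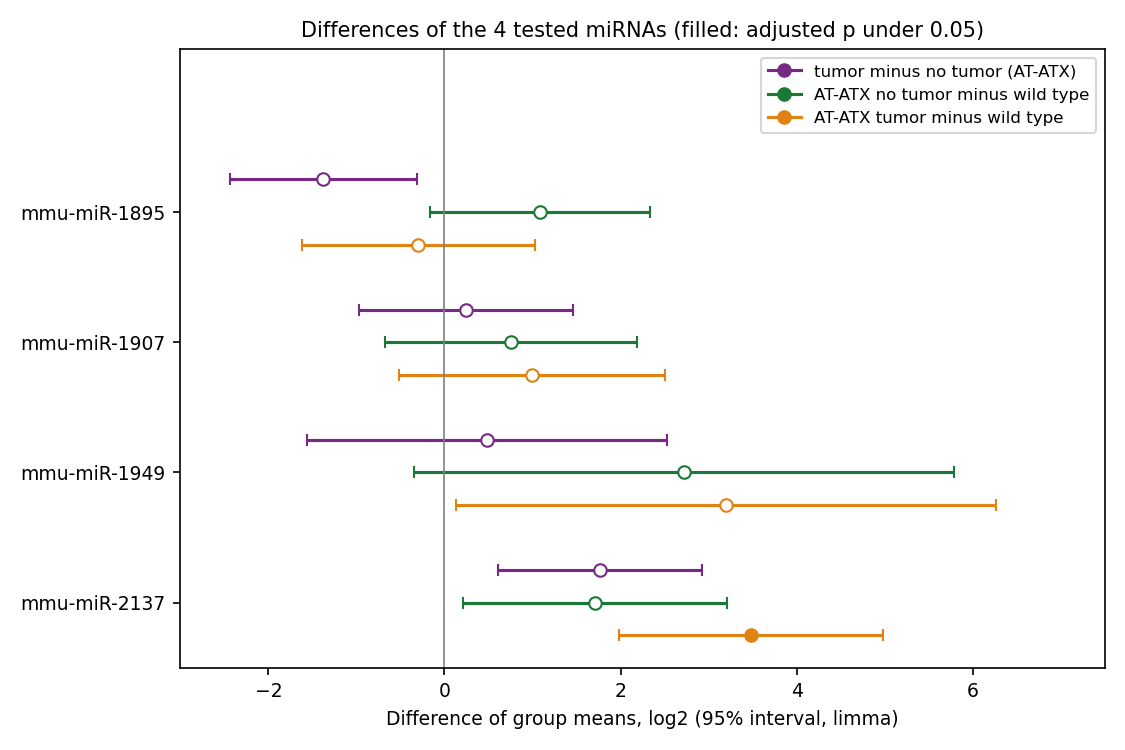
Differences of group means on the log2 scale (x axis) for the 4 tested miRNAs (y axis), with 95% intervals from the limma fit. Filled points passed at an adjusted p under 0.05 over 338 assays: miR-2137 between AT-ATX tumor and wild-type mice, at 3.48, is the one that did.

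miR-1895 and miR-1957a moved together from mouse to mouse. With group means taken off, their levels correlated with r = 0.76 over the 13 mice in which both were detected (permutation p = 0.00055, adjusted p = 0.0055 over 10 pairs; rho = 0.80, permutation p = 0.00067, adjusted p = 0.0067). Without the 2 mice farthest in miR-1957a, r was 0.60, and within the 7 tumor-free mice it was 0.93. Both levels subtract a Ct from the same shared mean. With group means taken off, both fell as that mean rose, with r = -0.63 for miR-1957a and -0.31 for miR-1895. The part of this in their correlation was not tested. The other 9 pairs of the 5 miRNAs did not pass, with r from -0.66 (miR-1907 with miR-1957a) to 0.38 (miR-1895 with miR-1949).

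Both also resembled the same other assay. The assays most like miR-1895, by r of levels with group means taken off, were miR-145a-3p (0.80, 13 mice), miR-1195 (0.79, 15 mice) and miR-1957a. Those most like miR-1957a were miR-1195 (0.86), let-7b-3p (0.82) and miR-455-3p (0.79), each over 14 mice. In raw Ct the correlation of miR-1195 with miR-1895 and with miR-1957a was 0.95 each. The median r over all assays compared was 0.03 for miR-1895 and 0.02 for miR-1957a, and the lowest r was -0.70 and -0.81.

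**Figure D4:**
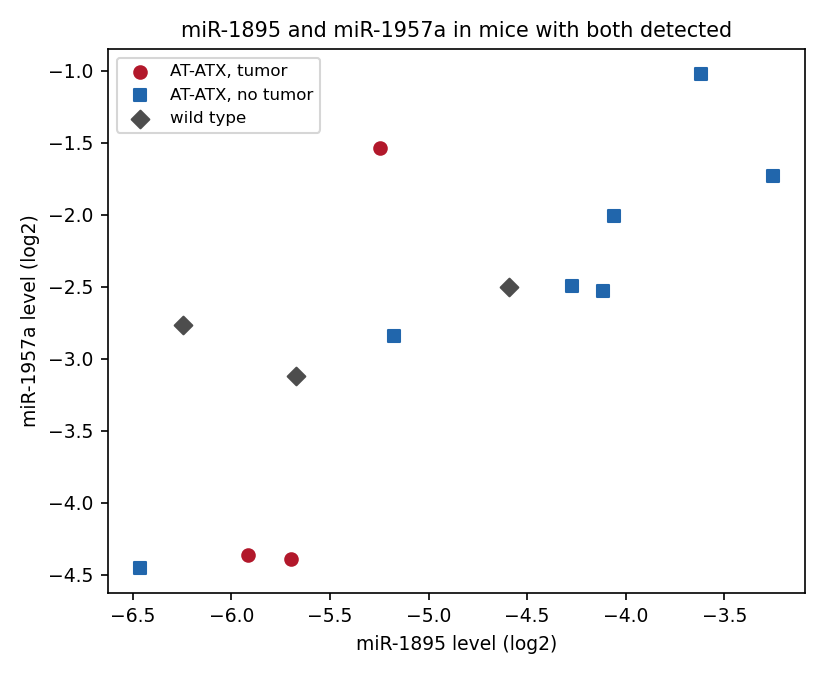
Level of miR-1957a (y axis, log2) against that of miR-1895 (x axis, log2) in the 13 mice in which both were detected, by group. Points rise together, with r = 0.76 over the 13 mice, group means taken off, and 0.60 without the 2 farthest in miR-1957a. Among the 7 tumor-free AT-ATX mice r was 0.93, where replicate 2 was the lowest of that group in both.

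miR-1949 was the most variable of the 5. Its level in tumor mice 1 to 7 was -2.56, -3.94, -3.63, -3.24, 0.06, -0.05 and -3.73. In tumor-free mice 1 to 7 it was -3.82, -4.96, -3.61, -1.02, -4.56, -4.27 and 1.80. Wild-type mice 1 and 2 had -4.20 and -7.08, and replicate 3, with no value, lay at or below -7.02. A few mice of either transgenic group thus stood far above the rest: tumor replicates 5 and 6 and tumor-free replicates 4 and 7. All 7 tumor mice lay above the wild-type mice, of which 2 had a value, and such a separation held for 5.33% of all tested assays.

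The SD of its raw Ct over the mice was 2.39 cycles, against a median of 1.52 over the tested assays, and it ranked 327 of 338 from the least variable. The means were -2.44 ± 1.73 (SD, n = 7) in tumor mice, -2.92 ± 2.44 (n = 7) in tumor-free mice and -5.64 ± 2.04 (n = 2) in wild-type mice. Tumor mice differed from wild type by 3.20 (SE 1.46, 95% interval 0.14 to 6.26, limma adjusted p = 0.186), and tumor-free mice by 2.72 (SE 1.46, limma adjusted p = 0.26). They were 1.76 and 1.28 without wild-type replicate 2, and 4.64 and 4.16 without wild-type replicate 1, each time against a single wild-type value that was assumed to vary like the other groups. On raw Ct they were 1.02 and 0.90, and the spike-in scale gave 1.37 and 0.92. Between tumor and tumor-free mice the difference was 0.48 (SE 0.97, limma adjusted p = 0.838). It was 0.065 without tumor replicate 5, 1.27 without tumor-free replicate 7, 0.12 on raw Ct and -0.016 relative to reference miRNAs.

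The assays most like miR-1949 were miR-339-3p (r = 0.82), the immune cell miRNA miR-146a-5p (0.79) and the lymphocyte miRNA miR-150-5p (0.78), each over 16 mice. They are the highest of 350 assays compared, whose median r was -0.02 and lowest r -0.63. In raw Ct, miR-1949 correlated with the named assays at 0.77, 0.85 and 0.86.

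miR-1907 had nearly the same Ct in every mouse in which it was detected. Its Ct in tumor mice was 35.7 (replicate 1), 35.4 (replicate 4), 35.6 (replicate 5), 35.8 (replicate 6) and 35.6 (replicate 7), with no value in replicates 2 and 3. In tumor-free mice the lowest, median and highest Ct were 35.1, 35.6 and 35.9, and wild-type mice had 35.1, 35.1 and 35.8. The whole range over 15 mice was 0.858 cycles, where the median range of the tested assays was 5.61 and the mean Ct of the shared assays itself ranged over 4.67 cycles.

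The SD of the Ct of miR-1907, 0.303 cycles, was the smallest of the 338 tested assays, and also of the 11 whose mean Ct lay above 35, a limit chosen after the data were seen, where the median SD was 1.16. Its level, which subtracts this nearly constant Ct from the shared mean, followed that mean with r = 0.97 over 15 mice, group means taken off. For the other 4 this r lay between -0.63 and 0.24. Its levels ran from -8.09 to -4.08.

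**Figure D5:**
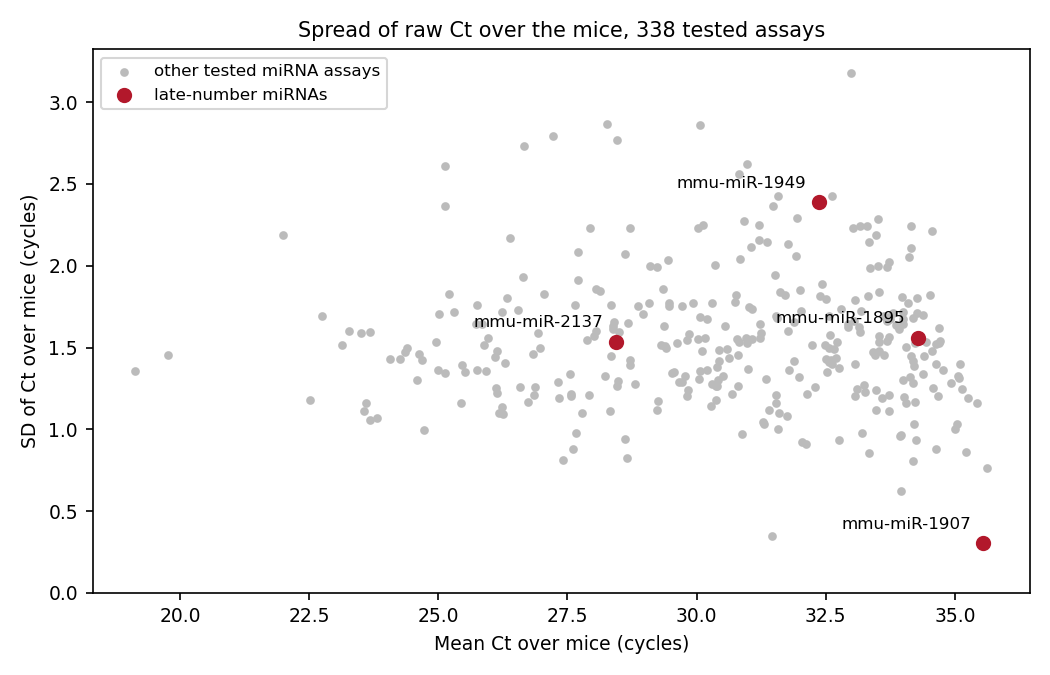
SD of the raw Ct over the mice (y axis, cycles) against the mean Ct (x axis, cycles) for the 338 tested miRNA assays, with the 4 tested late-number miRNAs in red. miR-1907 lies lowest, at 0.303 cycles, at one of the highest mean Ct values, and miR-1949 lies high, at 2.39 cycles.

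Its levels gave no difference that passed. The means were -5.96 ± 1.41 (SD, n = 5) in tumor mice, -6.20 ± 0.63 (n = 7) in tumor-free mice and -6.95 ± 1.13 (n = 3) in wild-type mice. Tumor mice differed by 0.24 from tumor-free and by 1.00 from wild-type mice, and tumor-free from wild-type mice by 0.75 (limma adjusted p = 0.853, 0.412 and 0.51). With raw Ct these were -0.04, -0.30 and -0.27, each on the other side of 0. The assays most like it in level were miR-297a-5p (r = 0.98), miR-758-3p (0.93) and the rat assay miR-208a-3p (0.88), over 15 mice each. These too had small SDs of raw Ct, 0.349, 0.622 and 0.879 cycles, and in raw Ct their correlation with miR-1907 was 0.46, 0.34 and -0.04.

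The raw Ct of all 5 miRNAs rose with the mean Ct of the shared assays. This mean averages 252 assays of the same sera, miR-2137 among them. How many other assays rose in this way was not counted, so these relations do not set the 5 apart from the panel. With group means taken off, r was 0.89 for miR-1957a over 14 mice and 0.84 for miR-1895 over 15 mice (permutation p = 3e-05 and 1e-05, the second the smallest that 100000 permutations give; adjusted p = 7.5e-05 and 5e-05 over 5 relations; rho = 0.91 and 0.86, permutation p = 4e-05 each). It was 0.62 for miR-2137 over 17 mice and 0.59 for miR-1949 over 16 and miR-1907 over 15 (permutation p = 0.0276, 0.0214 and 0.024, adjusted p = 0.0276 each; rho = 0.57, 0.80 and 0.56, permutation p = 0.0334, 0.00106 and 0.0473). Without the 2 farthest mice r was 0.90, 0.80, 0.84, 0.53 and 0.58 in the order named. Within tumor-free mice alone r was 0.96 (miR-1957a), 0.94 (miR-1895), 0.75 (miR-2137), 0.54 (miR-1949) and 0.75 (miR-1907), and within tumor mice it was 0.86 for miR-2137 and 0.63 for miR-1949.

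Levels of the 5 were not shown to follow the hemolysis index. With group means taken off, r was 0.35 for miR-2137 (permutation p = 0.323), -0.43 for miR-1895 (permutation p = 0.0454), -0.47 for miR-1957a (permutation p = 0.119), -0.27 for miR-1949 (permutation p = 0.289) and 0.24 for miR-1907 (permutation p = 0.522). The values of rho were 0.33, -0.32, -0.34, -0.28 and 0.29 (permutation p from 0.259 to 0.405), and r without the 2 farthest mice was 0.36, -0.46, -0.59, -0.12 and 0.13. The smallest adjusted p over the 5 was 0.227. Within the 7 tumor-free mice r was -0.76 for miR-1895, 0.67 for miR-2137, -0.56 for miR-1949, -0.55 for miR-1957a and 0.55 for miR-1907. Within the tumor mice it was -0.12 for miR-2137 and 0.02 for miR-1949. These values within groups were not tested.

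The 4 tested members were set beside the rest of the late-numbered mouse miRNAs. Their median difference was 2.10 between tumor and wild-type mice, 1.40 between tumor-free and wild-type mice and 0.36 between tumor and tumor-free mice. Between tumor and wild-type mice the 4 differences were -0.30 (miR-1895), 1.00 (miR-1907), 3.20 (miR-1949) and 3.48 (miR-2137). They ran from 0.75 to 2.72 between tumor-free and wild-type mice and from -1.38 to 1.77 between tumor and tumor-free mice. Only 2 wild-type mice had a value for miR-1949, and the level of miR-1907 followed the shared mean. The medians therefore do not show that the 4 rose as a set. The medians of the 14 other mouse assays with a registry number of 1000 or more, all tested, were 0.04, -0.49 and -0.16, and those of all 338 assays were 0.19, 0.03 and 0.14. Of these 14, 1 passed as higher in tumor mice (4.14% of all assays) and 1 as higher in tumor-free mice (0.296% of all assays), each against wild type and in both cases miR-1900. None of the 14 passed as lower in limma. A limma unadjusted p under 0.05 marked 2 of the 14 with tumors, 1 of them lower, and 2 without, 0 of them lower. In either direction it marked 85 and 76 of all 338 assays. The differences of miR-1900 were 3.35 and 5.74 (limma adjusted p = 0.0159 and 0.000198), where miR-2137 had 3.48 and 1.71. Between tumor and tumor-free mice 0 of the 14 and 0 of the 4 members passed in limma. There a limma unadjusted p under 0.05 marked 5 of the 14, 2 of the 4 and 57 of all 338 assays. By exact permutation, adjusted over all assays, 0 of the 338 passed.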

How the data were processed

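Serum came from blood collected at necropsy, and 50 µL of it gave the RNA, per the labels' protocols. They name panel plates for 40 cycles of PCR with SYBR Green. The authors deposited Ct values for 365 assays (357 miRNAs, 8 controls), not normalized per the name of their table. Threshold setting, calibration between plates and the detection limit are not given in the sources used here. No value reached 37, and an empty cell counts as an assay without detection. In 13 of the 17 samples the last decimals of the Ct values take 2 endings, which divide the assays into sets of 245 and 120. No label names these sets, and they served only in alternatives. The number of mice limits the precision.

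All 17 mice entered 1 limma fit (version 3.58.1, R 4.3.3; lmFit, eBayes), with two-sided p-values adjusted (Benjamini-Hochberg) over 338 tested assays per comparison and a threshold of 0.05. Every adjusted p for a single miRNA comes from this fit unless another test is named. The limma p-values set each difference between groups against the spread between mice and take the mice as independent. Correlations used 100000 permutations within groups (Python 3.11.15, numpy 2.4.6, scipy 1.17.1). Mice were grouped by their labelled disease status, and replicate numbers follow the order of the samples. Samples were compared for duplicates, and the closest 2 differed with an SD of 0.665 cycles.

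The named miRNAs were the 5 members, the 3 assays most like each in level over at least 12 mice, the other mouse assays numbered 1000 or more that passed, and the 2 miRNAs of the hemolysis index. Hepatocyte and platelet markers that passed are named as well. The members, lists and tests were chosen with earlier results of these data known.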

Additional observations from a re-analysis of the deposited data

How the results depend on the processing

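Of 426 values recomputed under alternatives, 399 kept their direction and side of the threshold or, without a test, moved by less than the spread between mice. For miR-2137 in tumor against wild-type mice, the limma call was lost with raw Ct (2.10), spike-ins (2.36), only the 2 groups compared (3.48, adjusted p = 0.0625) and exact permutation (3.48), and it was kept without any 1 of the 17 mice (2.19 to 4.24). Between tumor and tumor-free mice its difference of 1.77 passed in 2 of 33 alternatives, with only the 2 groups compared and without wild-type replicate 1. It ran from 1.54 to 2.00 without each mouse. miR-1895 in this comparison ran from -1.72 to -1.18 without each mouse. It passed in 1 of 32 alternatives, without tumor-free replicate 2. Its difference between tumor and wild-type mice ran from -0.67 to 0.16, turning without wild-type replicate 3, and that between tumor-free and wild-type mice turned with spike-ins (-0.00067). miR-1907 turned between tumor and tumor-free mice with reference miRNAs (-0.25), raw Ct (-0.038) and missing values at Ct 37 under either filter (-0.069), and ran from -0.23 to 0.67 without each mouse. It turned between tumor-free and wild-type mice with raw Ct (-0.27), spike-ins (-0.33) and quantile normalization (-0.20), and between tumor and wild-type mice with raw Ct (-0.30) and spike-ins (-0.14). miR-1949 turned between tumor and tumor-free mice with reference miRNAs (-0.016). miR-1957a moved with missing values at Ct 37 (-2.66 against tumor-free and -2.31 against wild-type mice). The number of passing results among the 5 miRNAs was 1, 0 with raw Ct, spike-ins and exact permutation, and 1 to 2 without each mouse. The cause was not tested. Over all assays, calls between tumor and tumor-free mice numbered 5, but 0 with reference miRNAs, raw Ct, spike-ins or exact permutation (49, 17, 14 and 57 at an unadjusted p under 0.05), 8 with only the 2 groups compared and 13 with the hemolysis index as covariate. With 7 against 3 mice the exact permutation p cannot fall below 0.00833, which limits how many assays can pass after adjustment. Between tumor and wild-type mice calls numbered 28, but 9, 15, 8, 0 and 1 with reference miRNAs, raw Ct, spike-ins, exact permutation and only the 2 groups compared. Between tumor-free and wild-type mice they numbered 2, but 15 with only the 2 groups compared, 5 with the hemolysis index as covariate and 7 with means taken within the 2 assay sets by decimal ending, an alternative added after the data were seen. Without each mouse these 3 counts ran, in turn, from 2 to 10 (2 without tumor-free replicates 1 or 6 or tumor replicates 3 or 4, 10 without tumor replicate 5), from 10 to 39 (10 without wild-type replicate 3, 13 without wild-type replicate 2, 16 without tumor replicate 2) and from 1 to 9 (9 without wild-type replicate 1). miR-1895, miR-1907 and miR-1949 could not be tested with a detection limit of Ct 35. No paired analysis was possible because the label numbers shared by some transgenic mice (77 and 85) match no mouse 1 to 1 and have no stated meaning. With that number as a random block, the difference of miR-2137 between tumor and wild-type mice was 3.47 and 0 calls for the 4 tested miRNAs changed.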
